A study of Mus musculus with 4 samples.

Results

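The sites described here are p63 peaks that were listed in alphaKO epidermis, shared no base with any WT peak, and whose summit was no more than 1 kb from the start or the 3′ end of a protein-coding gene. There were 411 such sites, nearest to 407 different genes, among 14593 alphaKO peaks and 10616 WT peaks. The count was 227 when the longer alphaKO list was cut, by −log10 q, to as many peaks as the WT list. The 411 were 5.46% (95% Wilson interval 4.97 to 6.0) of the 7523 alphaKO peaks without a WT partner. Gene ends held 11.3% (10.6 to 12.1) of the 7070 alphaKO peaks with a WT partner. Of the 3550 WT peaks without an alphaKO partner they held 30.2% (28.7 to 31.7). The members were chosen by presence in one peak list and absence from the other, that is, on the measured peak calls, so the absence from WT is the rule and not a finding. The members and gene groups were chosen with earlier results of these data known.

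Binding of p63 was mapped by ChIP-seq, the sequencing of DNA precipitated with an antibody to a chromatin protein, in dorsal epidermis of newborn mice (postnatal day 0), after the dermis had been removed and the cells dissociated and fixed with formaldehyde. One group was wild type (WT) and the other was labelled p63 alphaKO (alphaKO), with 1 ChIP library and 1 input library each and the same p63 antibody, EPR570, in both. The sources used here do not give the allele's construction, the strain, the sex, the number of animals pooled or the part of p63 that the antibody recognises. With 1 library per genotype nothing was tested between genotypes, and intervals cover counting error only. Fold enrichment, pileup and −log10 q are the authors' own values for each peak.

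p63 is a member of the p53 family and maintains the basal keratinocytes of stratified epithelia. It binds DNA as a tetramer, at a pair of adjacent 10-base repeats that each hold a C and a G at fixed places, and most of its sites in keratinocytes lie in enhancers away from promoters. Its alpha isoforms carry a C-terminal part with a sterile alpha motif domain, and mutations of that part cause AEC syndrome, a disorder of skin and its appendages named in the title of the series. Binding close to a gene start falls in the promoter, whereas binding at the 3′ end of a gene may serve that gene, a neighbour, or neither.

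Of the 411 summits, 75 lay in a RefSeq promoter window, which spans 250 bases before to 50 bases after a transcription start (GRCm38.p6, the assembly named by mm10). The stretches printed next show what such a site looks like in sequence. They were chosen after their values were seen, to span the range of enrichment among members with a p53 family element at the summit. Each is written 5′ to 3′ along the strand of its gene and ends before the transcription start, and the capitals mark the 20 bases of the element.
Plcxd1: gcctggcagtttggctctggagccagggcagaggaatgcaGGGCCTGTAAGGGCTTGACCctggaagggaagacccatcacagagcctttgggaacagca
Arhgap44: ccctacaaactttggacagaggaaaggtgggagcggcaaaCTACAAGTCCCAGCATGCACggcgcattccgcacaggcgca
Dusp10: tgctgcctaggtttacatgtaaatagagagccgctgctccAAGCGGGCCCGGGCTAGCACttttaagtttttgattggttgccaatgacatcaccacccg
Ms4a10: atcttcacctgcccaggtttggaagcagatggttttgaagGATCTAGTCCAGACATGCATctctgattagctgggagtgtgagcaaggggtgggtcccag
H60c: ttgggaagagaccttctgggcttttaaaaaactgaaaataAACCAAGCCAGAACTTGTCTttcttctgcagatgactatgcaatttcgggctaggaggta
Wrap53: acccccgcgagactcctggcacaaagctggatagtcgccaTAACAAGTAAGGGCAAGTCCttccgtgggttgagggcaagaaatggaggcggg
Inpp5b: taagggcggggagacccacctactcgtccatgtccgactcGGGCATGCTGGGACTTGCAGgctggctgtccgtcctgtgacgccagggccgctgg
Slc1a3: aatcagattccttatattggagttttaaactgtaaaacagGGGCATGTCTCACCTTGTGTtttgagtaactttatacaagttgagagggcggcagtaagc

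In all 8 stretches the summit fell within the capitals. The Plcxd1 stretch (chr5:110099801-110099900, plus strand) belongs to a peak with a fold of 38.0, the highest among the 8, and its element has 4 mismatches to the consensus. Plcxd1 encodes a phospholipase C-like protein. Arhgap44, which encodes a GTPase-activating protein (chr11:65162962-65163042, minus strand), had a fold of 21.2 and also 4 mismatches. Dusp10, a phosphatase acting on stress-activated MAP kinases (chr1:184034139-184034238, plus strand), had a fold of 15.1 with 3 mismatches. Ms4a10 (chr19:10974741-10974840, minus strand), of a family of membrane-spanning proteins, had a fold of 12.9 with 2 mismatches. H60c, a ligand of the immune receptor NKG2D that keratinocytes can display (chr10:3267837-3267936, minus strand), had a fold of 11.9 with 2 mismatches.

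The Wrap53 stretch (chr11:69580251-69580343, minus strand) lies between the starts of Wrap53 and Trp53, the gene of the family member p53, which are transcribed away from each other. Its peak had a fold of 11.3 and 3 mismatches, and no WT peak was listed within 10 kb of Wrap53. The Inpp5b stretch (chr4:124741755-124741849, plus strand), from the gene of an inositol phosphatase, had a fold of 9.42, and the Slc1a3 stretch (chr15:8710939-8711038, minus strand), from the gene of a glutamate transporter, a fold of 3.49. Both elements had 3 mismatches.

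The element was about as frequent in the promoter windows of the alphaKO-only sites as in those of shared sites. With the 4 core C and G bases intact and at most 4 mismatches elsewhere among the 20 bases, it stood in 26 of 75 windows (34.7%, Wilson 24.9 to 45.9). The share was 33.6% (27.9 to 39.8) of the 241 windows that held the summit of a shared alphaKO peak. It was 6.35% (4.40 to 9.09) of the 425 windows that held a WT-only summit, and 5.00% (4.72 to 5.31) of all 21262 promoter windows of protein-coding genes. The interval of the alphaKO-only sites thus lay around the share of shared sites and above both other shares. The element reads the same on both strands, so 1 scan covers both.

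The windows also differed in base composition. Their median G and C content was 61.0% for alphaKO-only sites, 64.7% for shared sites, 68.7% for WT-only sites and 56.3% for all windows, and the median number of CG pairs was 20, 24, 29 and 13. The WT-only windows were therefore the richest in G and C and held few elements. The part of base composition in these shares was not tested.

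Where an element was present it lay under the summit. In the 26 alphaKO-only windows the nearest element centre was a median of 5.0 bp from the summit, and 24 (92.3%, 75.9 to 97.9) were within 20 bp. The 81 windows of shared sites had a median of 4.5 bp and 90.1% (81.7 to 94.9) within 20 bp, and the 27 windows of WT-only sites a median of 25.5 bp and 44.4% (27.6 to 62.7). Members with an element had a median fold of 11.3, from 3.49 to 38.0, and the 49 without one a median of 8.5, from 2.36 to 29.9.

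**Figure D1:**
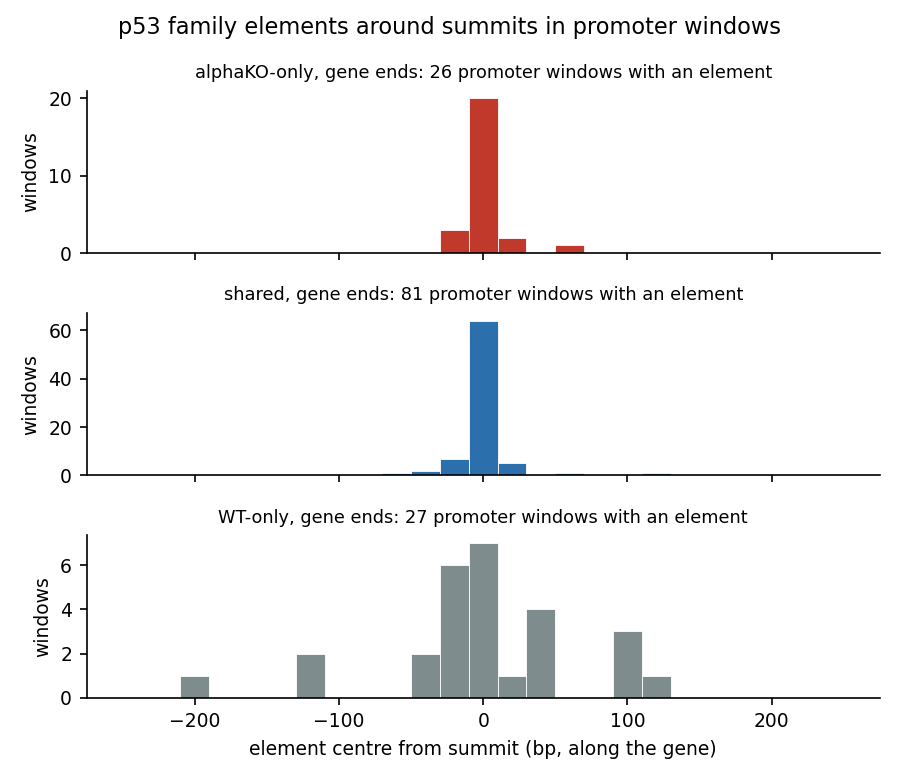
Distance in bp, along the gene, from the peak summit to the centre of the nearest p53 family element, for promoter windows that hold both. Bars count windows in each class, and in the alphaKO-only panel 24 of 26 elements lie within 20 bp of the summit.

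Other forms of the motif were counted in the same windows. The core alone, a C and a G 3 bases apart in each repeat with any base elsewhere, reads the same on both strands and is part of every element. It occurred in 94.7% of alphaKO-only windows, 97.5% of shared windows, 94.4% of WT-only windows and 75.1% of all promoter windows. Over whole windows the core alone thus did not set the alphaKO-only windows apart from the other gene-end classes. Within 50 bp of the summit it occurred in 89.3% (80.3 to 94.5) of alphaKO-only windows and 85.5% (80.5 to 89.4) of shared windows. For WT-only windows that share was lower, 66.8% (62.2 to 71.1). The element with at most 2 mismatches was found in 3 of the 75 windows (4.00%, 1.37 to 11.1) and in 7.05% (4.45 to 11) of shared windows. It was found in 0.471% (0.129 to 1.70) of WT-only windows and in 0.310% (0.244 to 0.395) of all windows. A stringent core, CATG in both repeats with 6 bases of any kind between them, likewise its own reverse complement, occurred in 2 of the 75 windows (2.67%). The stringent core was in 1.66% of shared, 0.235% of WT-only and 0.701% of all windows. Within 100 bp of the summit the stringent core occurred in 0 of 75, which allows a share of up to 4.00% when 3 counts of the 75 are taken as the limit, and 4.87% by the Wilson interval. A sequence without a match says only that these letters are not in that window.

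The alphaKO-only sites lay at 3′ ends of genes more often than the other gene-end sites. Strand was available for the genes of 344 members, and of these 235 (68.3%, 63.2 to 73.0) were nearest to the start of the gene and 109 (31.7%, 27.0 to 36.8) to its 3′ end. For the remaining 67 members the end was not assigned. Shared sites of the alphaKO list were at the 3′ end in 93 of 648 (14.4%, 11.9 to 17.3), and WT-only sites in 41 of 823 (4.98%, 3.69 to 6.69). The 3 intervals did not overlap. Another transcription start lay within 1 kb of 8 of the 109 sites at 3′ ends. These starts were those of the RefSeq promoter table, which matched 17491 of 21896 protein-coding genes, so 8 may be too low. Without such sites the shares were 30.1% (25.4 to 35.2), 13.3% and 4.28%.

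At starts the summits gathered near the first base of the gene, and at 3′ ends they did not gather. Of the 235 members at starts, 53 (22.6%, 17.7 to 28.3) had their summit within 100 bp of the boundary, beside 25.4% (22.0 to 29.2) of shared and 37.7% (34.4 to 41.2) of WT-only sites at starts. Of the 109 members at 3′ ends, 5 (4.59%, 1.98 to 10.3) lay within 100 bp of it. The summit was inside the gene in 127 of the 235 (54.0%) and in 56 of the 109 (51.4%).

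**Figure D2:**
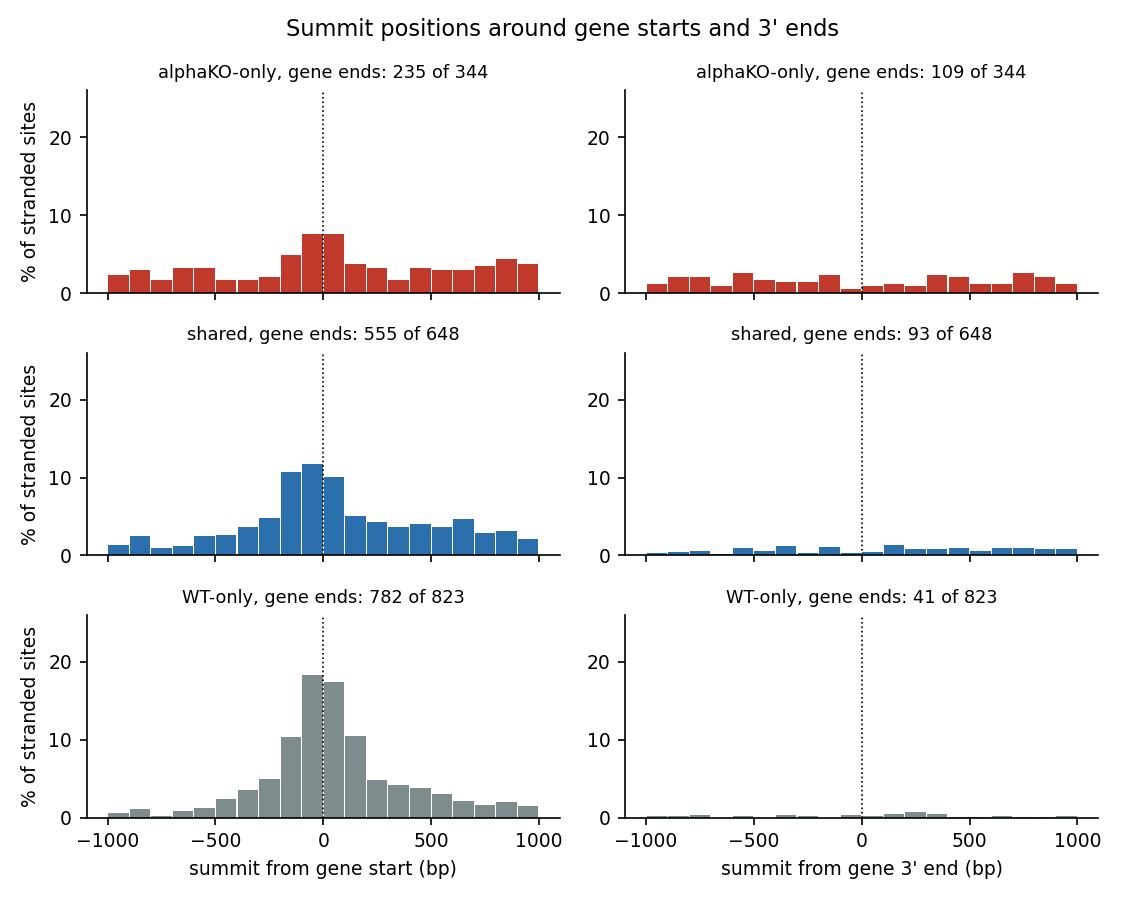
Position of the summit, in bp along the direction of the gene, from the gene start (left) or the 3′ end (right) for 3 classes of gene-end sites. Bars give the percentage of the sites of that class with known strand, and the alphaKO-only class has 109 of 344 sites in its 3′ panel, beside 93 of 648 for shared and 41 of 823 for WT-only sites.

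Sites at 3′ ends were the stronger ones in each class of gene-end sites. Members at 3′ ends had a median fold of 12.4 (quartiles 8.92 and 20.4) and members at starts 9.48 (6.27 and 13). For shared sites of the alphaKO list the medians at 3′ ends and starts were 20.9 and 12.8, and for WT-only sites 5.69 and 3.99. When all alphaKO peaks were divided into 5 groups of equal size by fold, the share of members at 3′ ends was 21.9%, 28.8%, 39.6% and 45.8% from the weakest group to the fourth. The strongest group held 11 members with known strand, 8 of them at 3′ ends. Shared sites in the same groups were at 3′ ends in 9.43%, 10.4%, 13.4%, 15.9% and 24.6%. In each of the 5 groups the share at 3′ ends was higher among alphaKO-only than among shared sites. Folds still varied within a group, and the part of peak strength in the difference was not tested.

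**Figure D3:**
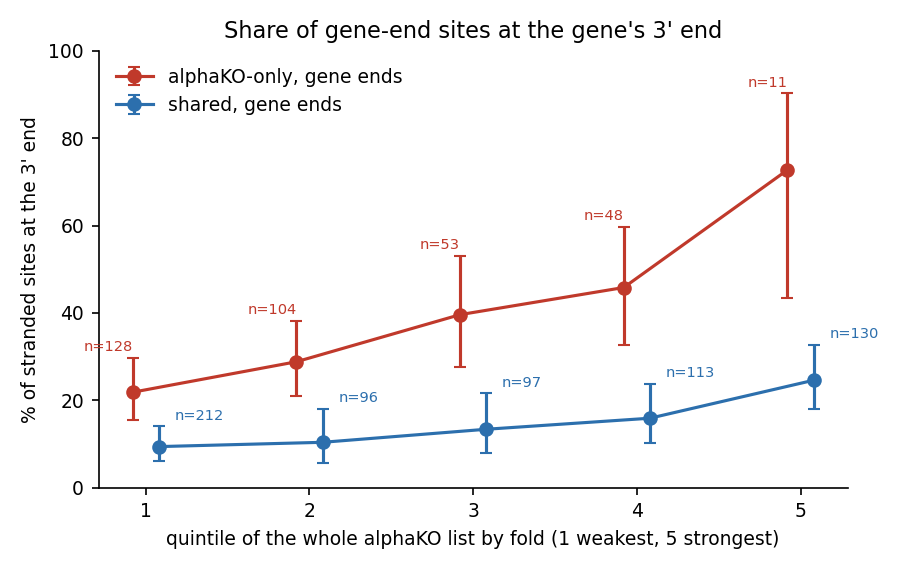
Percentage of gene-end sites with known strand that lie at the 3′ end, by group of fold in the whole alphaKO list, for alphaKO-only and shared sites. Bars are 95% Wilson intervals and n is the number of sites, and alphaKO-only sites lie higher in each group, from 21.9% to 45.8% over the first 4.

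The alphaKO-only sites at gene ends were weak peaks of their list. Their median fold was 10.3 (quartiles 7.33 and 15.7), beside 14 (7.53 and 27.6) for shared sites at gene ends, 12.9 (9.23 and 19.8) for alphaKO-only sites elsewhere and 21.8 (12.3 and 37.8) for shared sites elsewhere. Of the 411, 107 (26%, 22.0 to 30.5) exceeded the median fold of the alphaKO list, 15.5. Their median pileup, the fragment coverage at the summit, was 75, from 17 to 606, and their median −log10 q was 51.0, from 1.48 to 1067. None stood on a local background above 50, the level used to mark repeat-like places, and neither did any other gene-end site. Elsewhere it was rare too, at 3 of 7112 alphaKO-only and 19 of 6268 shared alphaKO peaks. The members' values come from the list that defined them and are given as a description.

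**Figure D4:**
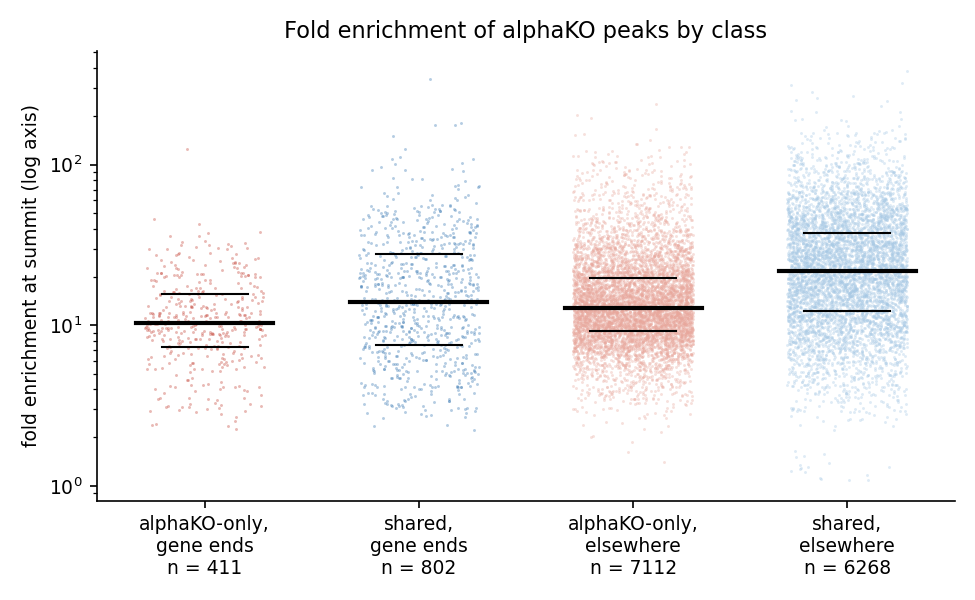
Fold enrichment at the summit (log axis) of each alphaKO peak in 4 classes, 1 point per peak, with the median (thick line) and quartiles (thin lines). The 411 alphaKO-only sites at gene ends have the lowest median, 10.3, and 1 point, at 124, stands above the rest of that class.

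Near gene ends a smaller part of the alphaKO peaks lacked a WT partner than elsewhere. Of the 1213 alphaKO peaks at gene ends 33.9% had none, where the share was 51.6% of all alphaKO peaks and 53.2% (52.3 to 54.0) of those elsewhere. In the 5 groups by fold, from weakest to strongest, the shares at gene ends were 37.3%, 50.2%, 35.5%, 31.4% and 6.56%. The corresponding shares elsewhere were 64.9%, 71.2%, 61.3%, 44.6% and 25%. In the strongest group 12 of 183 gene-end peaks had no WT partner.

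The strongest members lay mostly at 3′ ends. Of the 20 members with the highest fold, 13 were at a 3′ end, 6 at a start and 1 at an end that was not assigned. For 4 of the 20 a WT peak lay at the gene, counted over its body and 10 kb on each side, a share whose interval (20.0%, 8.07 to 41.6) held the 26.3% of all protein-coding genes. For 13 of the 20 the site was the only alphaKO peak of the gene over that span. Next below Spring1, which follows, the folds fell to 45.8 and less.

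Spring1, whose product regulates the SREBP pathway of lipid synthesis, had the strongest member, with a fold of 124, a −log10 q of 1067 and a pileup of 606 (chr5:118262289-118262940). Its summit lay inside the gene, 486 bp before the 3′ end, and the nearest WT peak was 39.6 kb away. Prkaa1, which encodes a catalytic subunit of AMP-activated protein kinase, had a fold of 42.8, 340 bp beyond its 3′ end (chr15:5181977-5182471). Its locus also held a WT peak, with a fold of 3.98, at another position. The predicted gene Gm33989 had a fold of 45.8.

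Casp8, the initiator caspase of death receptor signalling, had a fold of 32.8 at a summit 520 bp beyond its 3′ end (chr1:58847788-58848220), and no WT peak lay within 10 kb of the gene. Parl, a mitochondrial rhomboid protease, had a fold of 33.6, 712 bp beyond its 3′ end. Ddx39b, an RNA helicase (31.9), Tmem86b, a lysoplasmalogenase (35.9), and the tyrosine kinase gene Srms (31.4) were further genes with a strong member at the 3′ end. This group had no process in common that was fixed as a list. Dytn (30.7), the transcription factor gene Rfx4 (30.2), the chemokine gene Ccl6 (30.1), the predicted gene Gm11562 (32.4) and Slc9b1, an exchanger of the solute carrier family (29.7), complete the 3′ ends among the 20.

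At gene starts the strongest members belonged to Plcxd1 (38.0), Zdhhc19, a palmitoyltransferase gene (37.8), and Gzmn, a granzyme gene (36.1). R3hdml (31.1), Napb, which encodes a protein of membrane fusion (29.9), and Zfp52, a zinc finger gene (29.7), followed. The Zfp52 site lay within 1 kb of the end of Zfp53 as well. At Napb the summit was 20 bp before the start (chr2:148732233-148732665), with a pileup of 377. Fads1, a fatty acid desaturase gene, had a fold of 31.5 at an end that was not assigned.

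A handful of members lay at genes of epidermal structure. In each of these lists more genes had a shared site than an alphaKO-only one, as among all protein-coding genes. Across all protein-coding genes 1.86% had an alphaKO-only site at an end, 3.58% a shared site and 4.84% a WT-only site. Of 25 genes of basal keratinocytes and their anchorage, 1 had an alphaKO-only site and 7 a shared one. Of 36 genes of desmosomes and other junctions, 3 had an alphaKO-only site and 10 a shared one. Suprabasal and cornified envelope genes had 3 and 8 of 37, and barrier lipid genes 1 and 4 of 32. In the same order, 3, 9, 5 and 2 genes of these lists had a WT-only site. The alphaKO-only shares, 4.00%, 8.33%, 8.11% and 3.13%, were above the background of 1.86%, on 1 to 3 genes per list and without a test. The lists were chosen with results of these data known.

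The single basal gene was Cdh3, which encodes P-cadherin, with a weak member (fold 5.66, chr8:106510986-106511306). The same locus carried 4 WT peaks, the strongest with a fold of 127, so the gene itself was marked in both libraries. Among junction genes the adhesion gene Nectin3 had a fold of 11.1 and Cldn1, which encodes the tight junction protein claudin-1, 7.77. Cldn1 had no WT peak within 10 kb, whereas at Nectin3 a WT peak with a fold of 3.65 lay 326 bp away.

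Of the suprabasal list, S100a14, of the S100 calcium-binding family, had a fold of 10.6, Cst6, which encodes the cysteine protease inhibitor cystatin E/M, 10.3, and the aquaporin gene Aqp3 5.35. WT peaks stood within 10 kb of S100a14 (18.9) and Aqp3 (10.1), and none within 10 kb of Cst6. Scd3, a stearoyl-CoA desaturase gene, was the barrier lipid gene, with 8.37 at its start.

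Transcription regulators of the epidermis had an alphaKO-only site at 3 of 74 genes (4.05%), beside 18 with a shared site and 12 with a WT-only one. Id2, an inhibitor of basic helix-loop-helix factors, had a fold of 14.9, and no WT peak lay within 10 kb of it. Tcf7l1, a factor of the Wnt pathway, had 9.44 beside 5 WT peaks at the gene, and Foxp1, a forkhead factor gene, 3.04 beside 11 WT peaks. Of 43 p53 pathway targets 2 (4.65%) had an alphaKO-only site, Casp8 and Ddit4, an inhibitor of mTOR signalling. A shared site stood at 15 of these targets and a WT-only one at 8. The alphaKO-only shares of these lists were above the background of 1.86%, on 3 and 2 genes and without a test. Errfi1, an inhibitor of the EGF receptor, was the gene of the FGF and EGF list (9.31, 1 of 45). Mki67, the marker of dividing cells, was that of the cell division list (9.26, 1 of 46). Their shares, 2.22% and 2.17%, were near the background. In these 2 lists 4 and 4 genes had a shared site, and 9 and 0 a WT-only one.

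Several fixed lists had no alphaKO-only site at a gene end. They were those of 31 chromatin regulators, 51 Wnt, 29 Notch, 38 BMP and TGF-beta and 17 hedgehog and ectodysplasin pathway genes and 50 genes of cytokines and innate defence. In these lists 8, 5, 6, 6, 3 and 9 genes had a WT-only site, and 2, 6, 1, 2, 2 and 3 a shared one. With a background of 1.86%, lists of this size hold about 1 such gene or fewer, and a count of 0 is near it. The lists do not hold every gene of a pathway. Tcf7l1, of the Wnt pathway, the chemokine gene Ccl6 and the inflammasome gene Pycard had members but stood outside these lists.

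Of 20 dermal fibroblast genes 2 (10.0%) had an alphaKO-only site, the highest share among the 22 named lists and above the background of 1.86%, on 2 genes and without a test. They were Dcn, which encodes decorin (11.9), and Col5a1, a collagen gene (8.92). No gene of that list had a shared or WT-only site. No marker of melanocytes, immune cells, endothelium, Merkel cells, skeletal muscle, neurons or liver had an alphaKO-only site. Peaks do not measure transcripts, so they do not check which cells were present. In shorter sets of defining markers, 8 of 10 keratinocyte markers had a peak within 10 kb in each library. Among 8 fibroblast markers such a peak was listed for 1 in WT and for 4 in alphaKO. The counts for WT and alphaKO were 0 and 1 of 6 melanocyte, 1 and 0 of 6 immune, 2 and 3 of 4 endothelial and 2 and 3 of 6 Merkel cell markers. Of all protein-coding genes, 26.3% had a WT peak in the gene or within 10 kb. The matching share for the longer alphaKO list is not given here, so the marker counts of the libraries cannot be set against each other. The part of other cell types in the alphaKO-only sites was not tested.

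Gene families were also counted. Hair keratin genes Krt25 (13.5) and Krt71 (11.9), of the inner root sheath, were the members among 53 keratin genes, both at the 3′ end. The homeobox genes Hoxc13, a regulator of hair keratins (20.9), and Hoxc4 (9.08) were 2 of 39 Hox genes. Olfactory and vomeronasal receptor genes had 4 of 1472, led by Olfr536 (19.2), below the background. Zinc finger genes had 9 of 400, solute carriers 10 of 389 and ribosomal protein genes 4 of 178, shares of 2.25%, 2.57% and 2.25%. In all, 358 of the 411 members belonged to none of the lists or families.

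For some members a WT peak at another position marked the same gene. For 140 of the 411 members (34.1%, 29.6 to 38.8) the gene had a WT summit in its body or within 10 kb, where the share of all protein-coding genes was 26.3%. For members at starts it was 31.5% (25.9 to 37.7), an interval that held 26.3%, and at 3′ ends 35.8% (27.4 to 45.1). The strongest WT peak at such a gene had a median fold of 9.60. Of the 407 genes, 10 (2.46%) also had a shared site at an end and 21 (5.16%) a WT-only one. These shares were near those of all protein-coding genes, 3.58% and 4.84%. For 249 members (60.6%) no other alphaKO peak lay in the gene or within 10 kb.

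The distance to the nearest WT peak varied widely among the members, which by the rule did not touch one. It was a median of 45.8 kb away (quartiles 13.4 and 114 kb). A WT peak was within 10 kb of 87 members (21.2%, 17.5 to 25.4) and more than 100 kb from 117 (28.5%, 24.3 to 33.0). A gap under 1 kb separated 17 members (4.14%) from a WT peak. Of these 17, 13 (76.5%, 52.7 to 90.4) were at gene starts, beside 235 of all 411 members. The interval held the 68.3% at starts among members with known strand.

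The members closest to a WT peak were only just outside it. At Pxdc1 the alphaKO peak (fold 5.14) and a WT peak (5.04) were 116 bp apart, at Ing1, which encodes a chromatin reader, 200 bp (2.99 and 3.05), and at Fcho2, an endocytosis gene, 233 bp (5.48 and 4.46). On the other side of the rule, the smallest overlaps of gene-end peaks with a WT peak were 97 bp at Adgrb1, 116 bp at Relt and 186 bp at Park7. At the limit of 1 kb, the outermost members lay 981 bp (Nadk2), 986 bp (Tmem86a) and 991 bp (Slc7a1) from the gene end. The nearest alphaKO-only peaks beyond it lay at 1002 bp (Erlin1), 1014 bp (Odc1) and 1015 bp (Cdk2ap1).

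Some genes had more than 1 member, and some members had more than 1 gene. Ddit4 had members at folds of 7.5 and 5.99, and Pdk1, which encodes an inhibitor of pyruvate dehydrogenase, at 8.09 and 3.42, in each case both at the start. Pycard, an inflammasome adaptor gene, had 13 at its 3′ end and 3.99 at its start, and Adam8, a metalloprotease gene, 11.5 and 5.34 at its start. Ends of at least 2 genes lay within 1 kb of 45 summits (10.9%, 8.28 to 14.3), as at Wrap53 and Trp53. The longest members were those of Usp20 (877 bp, fold 5.19), the keratin-associated protein gene Krtap4-2 (756 bp, 28) and Maco1 (720 bp, 4.01), beside a median width of 361 bp.

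Members were spread over 20 chromosomes and made up 2.82% (2.56 to 3.10) of all alphaKO peaks. Chromosomes 2, 11 and 7 held 38, 34 and 31 of them, or 3.64%, 3.87% and 3.75% of the alphaKO peaks there, and chromosome 19 had the highest share, 4.45%, with 17 members.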

How the data were processed

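Peak lists of 1 WT and 1 alphaKO p63 ChIP library were analysed; the inputs were not used here. The submitters' processing notes name mm10, Bowtie2 and, for peaks, MACS2 2.1.1.20160309; options, duplicate handling and controls do not appear in the sources used here. Each deposited peak carries, per the file headers, a summit coverage (the pileup signal), a fold enrichment (a ratio over local background), and −log10 values of the authors' p-value and q-value; that background was recovered as pileup plus 1, divided by fold, minus 1. The lowest −log10 q in the WT list was 1.31, and 1.36 was the lowest in alphaKO. The lists carry no read totals, so the depth is unknown.

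Overlap meant at least 1 bp. The distance ran from the summit to the nearest boundary of 21896 protein-coding genes of a RefSeq table (GRCm38.p6), and a peak was named by that gene. Strand and promoter sequence came from the RefSeq promoter table, which matched 17491 of these genes; no genome sequence was used. Planned motif windows of 100 bp on each side of the summit were clipped to the promoter window. The shares in the text use the whole window unless a distance from the summit is given. Named genes were the 20 members of highest fold, up to 5 members of each list and 3 of each family, genes with more than 1 member, the longest members, and those at the limits of the rule. The values of 1 junction gene are not reported here. The members and lists were chosen with earlier results of these data known. Intervals of shares are 95% Wilson intervals and cover counting error alone: peaks do not stand for replicates, and without molecular identifiers reads may be copies of one molecule. The code was tested on simulated data. Computation used pandas 2.3.3 and NumPy 2.4.6 in Python 3.11.15, intervals SciPy 1.17.1, and plots matplotlib 3.10.9.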

Additional observations from a re-analysis of the deposited data

How the results depend on the processing

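The alternative settings gave 53 values in all, as most settings were applied to several results. Of these, 34 kept to the 95% interval of the reported share or median (order statistics), or to 1.5 times the count. The other 19 moved further. The cause was not tested, except that a wider or narrower distance takes in more or fewer peaks by construction. The count of 411 members became 221 with gene ends within 500 bp, 677 within 2 kb, 1335 within 5 kb and 227 with equal list lengths. The share of alphaKO-only peaks at gene ends, 5.46%, became 2.94%, 9.0%, 17.7% and 4.69% in these settings. The share of alphaKO gene-end peaks without a WT partner, 33.9%, became 28.8% within 500 bp, 41.0% within 5 kb, 29.5% with equal list lengths and 41.9% at a fold of at least 5 in both lists. The median fold, 10.3, became 9.64 within 500 bp. The share of members whose gene had a WT peak within 10 kb, 34.1%, became 29.0% at −log10 q of at least 10 in both lists, 27.5% with a flank of 5 kb and 61.6% with 50 kb. The share of all protein-coding genes was not recomputed in these settings, so these values have no matching background. The share with an element near the summit, 34.7%, became 4.0% with at most 2 mismatches, 0.0% for the stringent CATG core and 92.0% for the C and G core alone. The share at gene starts was recomputed only within 500 bp, within 2 kb and after removal of 3′ sites near another start. In each it stayed within its interval. It was not recomputed with equal list lengths or with cut-offs on fold or −log10 q. The removal was chosen after seeing the data, as was the use of the whole promoter window. No paired analysis was possible because each genotype had 1 ChIP library. A site under the WT list's threshold is not listed, and the depth at which it would be is unknown.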
